A study of Mus musculus with 22 samples.

Results

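The genes described here encode the Snai, Zeb and Twist transcription factors of the epithelial-mesenchymal transition (EMT): Snai1 (Snail), Snai2 (Slug), Zeb1, Zeb2, Twist1 and Twist2. They were taken by symbol, and all 6 were found among the 24130 genes of the deposited tables. In an EMT, epithelial cells lose their junctions and become migratory mesenchymal cells, and these factors switch off junction genes such as Cdh1 (E-cadherin). Fibroblasts are mesenchymal, and their reprogramming to pluripotent cells includes the opposite change, in which the epithelial programme is switched on. Snai factors are zinc-finger repressors that bind E-box DNA. Zeb factors bind the same kind of sequence through separate zinc-finger clusters, and Twist factors bind E-boxes as basic helix-loop-helix pairs with E proteins.

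Bulk RNA-seq was made from mouse embryonic fibroblasts (MEFs) carrying the OG2 transgene, at passage P2, with a strain background of 1/2 129SVJ, 3/8 C57B6 and 1/8 CBA. In every arm the day count follows 2 days of transfection. OvSvK cells received Klf4 with Oct4-vp16 and Sox2-vp16, that is Oct4 and Sox2 fused to the viral activation domain VP16, and were taken on days 0, 1, 2, 3 and 4. OSK cells without GSK3 inhibitors (CHIR-99021 and LiCl), without bFGF or without vitamin C, each a factor left out of the medium, were taken on days 3 and 7. OSK cells received Oct4, Sox2 and Klf4 and were taken on days 0, 1, 3, 5 and 7, and GFP cells, the transfection control, on days 1, 3, 5 and 7. MEFs and OG2 embryonic stem cells (mESC, passage P5) were read from the series table alone. The labels give mESC the same strain background and MEF another fraction of CBA. Each arm and day is 1 library (n = 1). An error here is therefore the variation of a difference between days or around a line over days, and p-values measure the spread among these libraries alone.

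The 20 libraries held 7872277 to 20720718 counts, and a count of 0 allowed up to 0.144 to 0.399 CPM (3 counts over the library total and its TMM scaling factor). Intervals below are exact Poisson intervals (95%), and they and this limit cover counting error only. The libraries fell into sets by how much of the joint count of Rpsa and its copy Rpsa-ps10 was given to the copy. The share was 3.32% to 7.78% in OSK days 1 to 7 and GFP (8 libraries) and 0.125% to 0.478% in OvSvK, all omissions and OSK day 0 (12 libraries). OSK against GFP lies within the first set and the omissions lie within the second, while an omission against OSK, or OvSvK against OSK on days 1 and 3, crosses them, and there the effects of arm and of set cannot be told apart. OvSvK and OSK on day 0 lie in the same set. OSK day 0 stood apart, with genes of low GC content at -1.63 (log2) below their mean over libraries, and GFP day 1 came next at -1.01. As a check of the arms, Pou5f1 (Oct4) stood at 716 to 1028 CPM in OvSvK and 59.1 to 266 CPM in OSK. In GFP it had 0 to 0.088 CPM. Sox2 went the other way between the factor arms, at 115 to 192 CPM in OvSvK and 177 to 950 CPM in OSK. Its level in GFP was 0.119 to 0.637 CPM. Klf4 stood at 366 to 716 CPM in OvSvK, 366 to 1217 CPM in OSK and 28.5 to 73.8 CPM in GFP. Counts per gene do not separate introduced from endogenous transcripts.

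On mm10, Snai1 lies at chr2:167538195-167542814 (plus strand) and Snai2 at chr16:14705852-14709385 (plus). Zeb1 lies at chr18:5591860-5775467 (plus) and Zeb2 at chr2:44983632-45117395 (minus). Twist1 lies at chr12:33957671-33959829 (plus) and Twist2 at chr1:91801461-91848028 (plus). The antisense transcript Zeb2os overlaps Zeb2 and was not a counted gene, and the sources used here do not state whether strand was used, so reads of the pair cannot be told apart. GC content of the longest transcript was 59.8% for Snai1, 42.6% for Snai2, 46.1% for Zeb1, 40.6% for Zeb2, 59.3% for Twist1 and 52.6% for Twist2.

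OSK against GFP asks what the factors changed beyond transfection. Across days 1, 3, 5 and 7, Snai1, Snai2, Zeb2 and Twist2 were lower in OSK cells than in GFP cells, Twist2 by the most. The fitted differences of Zeb1 and Twist1 were also below 0 and missed the threshold. All 6 passed the filter on low counts in every fit. In all, 4 of 6 members were called lower (adjusted p under 0.05, edgeR quasi-likelihood test with Benjamini-Hochberg adjustment over 12680 genes) and none higher. Among all genes tested 30.7% were called, 14% as lower. The median log2 difference was -1.97 over the members and 0.05 over all genes. Over days 1, 3, 5 and 7 OSK and GFP did not overlap for Snai1, Snai2 and Twist2. So 3 of 6 members lay lower in OSK without overlap, against 13.3% of all genes tested.

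Snai1, the founding EMT repressor of this group, stood at 5.16, 0.839, 1.48 and 1.86 CPM on days 1, 3, 5 and 7 of OSK, against 28.3, 12.0, 17.0 and 15.9 CPM on the same days of GFP. Every OSK library of these days was below every GFP library. The day 3 value of OSK rests on 8 counts (interval 0.362 to 1.65 CPM). In log2 units the fit gave -3.16 (SE 0.30, adjusted p = 0.00244), 8.93-fold lower in OSK. Snai2, which keeps neural crest and wound-edge cells migratory, stood at 14.9, 4.4, 5.50 and 2.71 CPM in OSK, against 17.6, 44.9, 49.0 and 63.8 CPM in GFP. The arms were close on day 1 and far apart later. On day 1 the ratio was -0.24 (log2) and on day 7 it was -4.56, where Snai2 was 23.6-fold lower in OSK. The fit gave -2.88 (SE 0.75, adjusted p = 0.0375). The call of Snai2 was lost without day 3, 5 or 7, at -2.70, -2.77 and -2.28 (adjusted p = 0.147, 0.155 and 0.0903). In the day 1 libraries, genes of low GC content stood at -1.01 (log2) in GFP and -0.41 in OSK. The part of GC content in the day 1 levels of Snai2 was not tested.

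Zeb1 stood at 39.1, 39.9, 46.3 and 26.7 CPM in OSK, against 41.4, 115, 79.7 and 101 CPM in GFP. The arms were alike on day 1 and GFP was higher on the other days. The difference was -1.07 (SE 0.33, adjusted p = 0.0566), and -1.43 (adjusted p = 0.009) without day 1. Zeb2, a partner of Smad proteins in TGF-beta signalling, stood at 28.5, 66.9, 77.5 and 77.1 CPM in OSK, against 37.2, 109, 144 and 204 CPM in GFP. OSK was below GFP on each day, though the arms overlap in level because GFP day 1 lay below OSK days 3, 5 and 7. The difference was -0.84 (SE 0.20, adjusted p = 0.0294), 1.78-fold lower in OSK. It was not called without day 3, 5 or 7, at -0.89, -0.82 and -0.65 (adjusted p = 0.112, 0.148 and 0.0503). Genes of low GC content stood at -1.01 (log2) in GFP day 1 and -0.41 in OSK day 1. The part of GC content in the day 1 levels of Zeb1 and Zeb2 was not tested.

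Twist1, a regulator of mesoderm and cranial mesenchyme, stood at 99.0, 39.4, 34.5 and 28.8 CPM in OSK, against 76.3, 76.9, 50.9 and 62.9 CPM in GFP. OSK was above GFP on day 1 and below it on the other days. The difference was -0.56 (SE 0.28, adjusted p = 0.177), and -0.91 (adjusted p = 0.0107) without day 1. Twist2 (Dermo1), a factor of dermal fibroblasts, stood at 10.3, 3.04, 3.57 and 1.68 CPM in OSK, against 105, 35.6, 53.8 and 60.4 CPM in GFP. It was the member with the widest gap on each day except day 3, where Snai1 had it. The difference was -3.95 (SE 0.35, adjusted p = 0.00214), 15.4-fold lower in OSK, and on day 7 alone the ratio was 35.9-fold. Cdh1, the best known target of these repressors, ran the other way, at 6.61, 62.9, 112 and 321 CPM in OSK, against 0 to 2 counts in each GFP library.

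**Figure D1:**
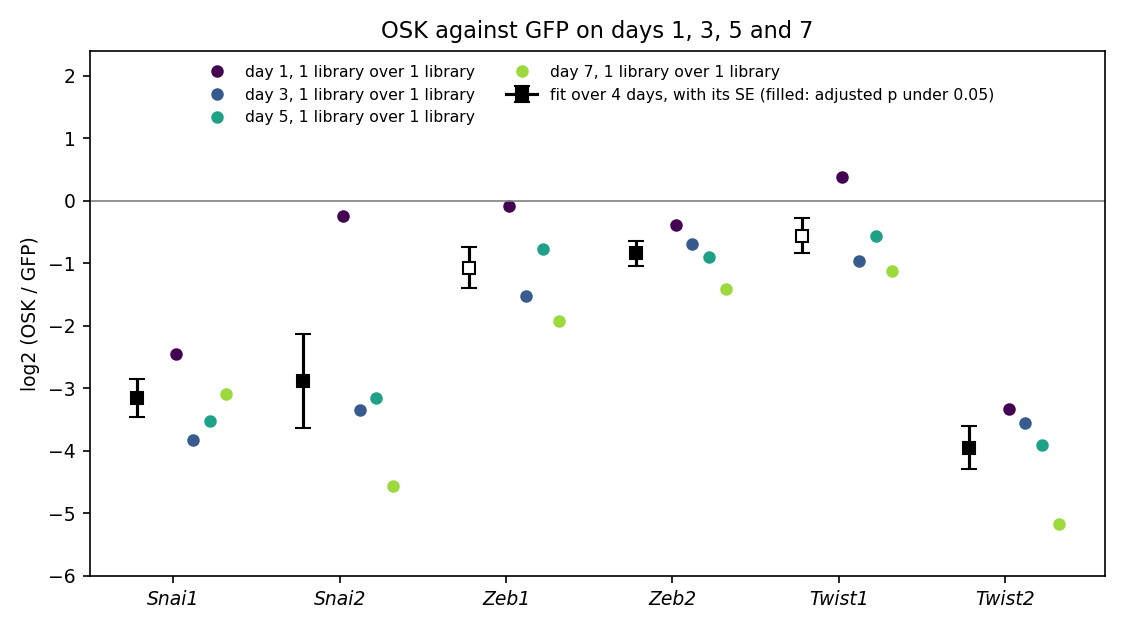
Difference between OSK and GFP for each gene (vertical axis, log2 of OSK over GFP). Circles are single days, 1 library over 1 library, and squares are the fit over 4 days with its SE, filled where the adjusted p was under 0.05. Twist2 lies between -3.34 and -5.17 on all days, while Twist1 lies at 0.38 on day 1 and below 0 later.

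The label of the cells was checked against markers. All 12 fibroblast markers were detected in OSK and GFP, and 8 of 12 were called lower in OSK, where 14% of all genes were, with a median of -3.12. Their summed level was 17929, 9351, 4623 and 2702 CPM on days 1, 3, 5 and 7 of OSK, and 15357 to 28705 CPM in GFP. In bulk samples fewer cells of a type and less RNA per cell cannot be told apart, and the part of this loss in the members' differences was not tested. Macrophage markers (10 genes, none at 0 in either arm) summed to 9.50 to 28.7 CPM on these days of OSK and 39.0 to 85.4 CPM in GFP. Skeletal muscle markers (8 genes) summed to 1.7 to 9.75 CPM on these days of OSK and 3.87 to 21 CPM in GFP, with Myod1, Myf5, Myf6 and Ckm at 0 in GFP and Myf5 and Myf6 at 0 in OSK. Endothelial markers (7 genes) were higher in sum, at 85.6 to 203 CPM in OSK and 15.3 to 17.3 CPM in GFP, with Cldn5 at 0 in GFP. Of the 3 endothelial markers tested Tek was higher (7.03, SE 0.25) and Cdh5 lower (-3.30, SE 0.43). Keratinocyte markers (5 genes) summed to 4.26 to 15.5 CPM in OSK and 0.711 to 4.59 CPM in GFP. Only 1 of them, Krt14, passed the filter and was tested, and it was higher (5.16, SE 0.61). With the whole list at 4.59 CPM or less in GFP, Krt14 was tested through its OSK level. The direction of such a marker, near 0 in GFP, was largely set by the filter. The part of these markers in the members' differences was not tested.

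Promoter sequence is shown for Snai1 and Twist2, the members with the smallest p in OSK against GFP, and for the epithelial genes Crb3 and Cldn4, which carry matches. Crb3 encodes an apical polarity protein and Cldn4 a tight junction claudin. The windows are the 250 bases before the start of each gene (RefSeq, GRCm38.p6), read on the gene's own strand from 5′ to 3′. Capitals mark CACCTG and its reverse complement CAGGTG, the same site on opposite strands and the E-box form preferred by Snai and Zeb proteins. Snai1 is at chr2:167537945-167538194 (plus), Twist2 at chr1:91801211-91801460 (plus), Crb3 at chr17:57061951-57062200 (plus, the first of its listed starts) and Cldn4 at chr5:134946935-134947184 (minus).
Snai1: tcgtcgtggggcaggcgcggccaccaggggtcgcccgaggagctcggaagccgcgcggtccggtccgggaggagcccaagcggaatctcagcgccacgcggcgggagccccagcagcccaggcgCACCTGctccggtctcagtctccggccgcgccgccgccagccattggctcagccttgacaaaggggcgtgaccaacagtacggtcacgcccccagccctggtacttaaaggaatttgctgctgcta
Twist2: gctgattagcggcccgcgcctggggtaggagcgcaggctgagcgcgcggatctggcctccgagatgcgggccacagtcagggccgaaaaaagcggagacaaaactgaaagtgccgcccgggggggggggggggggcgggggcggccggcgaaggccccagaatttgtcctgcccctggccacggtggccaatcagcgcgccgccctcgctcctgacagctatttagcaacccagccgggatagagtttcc
Crb3: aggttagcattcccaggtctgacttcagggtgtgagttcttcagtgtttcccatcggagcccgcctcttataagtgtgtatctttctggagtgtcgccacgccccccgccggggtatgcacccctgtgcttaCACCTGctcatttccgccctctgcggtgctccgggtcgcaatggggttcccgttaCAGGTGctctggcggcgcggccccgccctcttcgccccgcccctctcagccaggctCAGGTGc
Cldn4: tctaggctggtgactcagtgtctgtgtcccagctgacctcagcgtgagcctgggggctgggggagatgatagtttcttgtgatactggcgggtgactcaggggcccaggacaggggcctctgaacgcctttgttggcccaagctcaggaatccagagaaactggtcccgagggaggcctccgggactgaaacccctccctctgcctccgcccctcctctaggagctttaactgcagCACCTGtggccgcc
Snai1 held 1 match, at -126 from the start, Crb3 held 3, at -118, -63 and -7, and Cldn4 held 1 at -14, while Twist2 held none. Of the members, Snai1, Zeb2, Twist1 and Twist2 were searched, and 1 of 4 genes held the word. Over all promoters of the same length, 5657 of 32851 (17.2%) held it, or 5252 of 27025 genes (19.4%). Of the epithelial genes listed here, 14 of 21 with an entry held it (66.7%). That list was drawn from genes known as targets of these repressors, so its share is not independent of the word, and a match is a description of sequence.

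Crb3 was below the limit of 3 counts in OvSvK on days 0 and 1 (0 and 0.0572 CPM) and stood at 1.3, 3.61 and 4.05 CPM on days 2, 3 and 4. In OSK it had 0 counts on days 0 and 1 and stood at 1.15, 3.52 and 6.02 CPM on days 3, 5 and 7. Its slopes of 1.71 log2 per day in OvSvK (SE 0.43, adjusted p = 0.0277) and 1.00 in OSK (SE 0.22, adjusted p = 0.00503) passed. Cldn4 stood at 0, 0.229, 1.51, 9.25 and 26.3 CPM on days 0 to 4 of OvSvK, and at 1.96, 0.673, 1.99, 2.75 and 17.6 CPM on days 0, 1, 3, 5 and 7 of OSK, against 3.31, 0.711, 0.373 and 0.264 CPM in GFP. On matched days OSK was below GFP on day 1 and above it on days 3, 5 and 7. GFP day 1 (3.31 CPM) lay above OSK until day 5. Both genes were named for these promoters after their values were seen.

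The time courses ask in what order the members changed within each arm. In OSK Snai1, Snai2, Twist1 and Twist2 fell over the days and Zeb2 rose, while no member was called in OvSvK. Slopes came from 1 model with a line for each arm (14 libraries, 13848 genes). In OvSvK 0 of 6 members were called by edgeR, where 10.3% of genes were called. Of them 3 had an unadjusted p under 0.05, and DESeq2 called 1. In OSK 4 members fell and 1 rose, where 45.5% of genes were called, 24% as falling and 21.5% as rising. The members' median slope was -0.29 in OvSvK and -0.27 log2 per day in OSK, against 0.00 and -0.01 over all genes. OSK day 0 belongs to the other library set than OSK days 1 to 7, so a step from day 0 to day 1 of OSK cannot be told apart from that change of set. Markers of other cells differed over the same step. Macrophage markers summed to 54.7 CPM on day 0 and 13.8 CPM on day 1 of OvSvK, and to 201 and 28.7 CPM on these days of OSK. Skeletal muscle markers summed to 50.8 and 5.38 CPM in OvSvK and to 114 and 9.75 CPM in OSK, and the part of either in the members' early differences was not tested.

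Snai1 stood at 29.4, 5.03, 2.88, 2.29 and 2.81 CPM on days 0 to 4 of OvSvK, and at 34.8, 5.16, 0.839, 1.48 and 1.86 CPM on days 0, 1, 3, 5 and 7 of OSK. Day 1 was 5.84-fold below day 0 in OvSvK and 6.74-fold below it in OSK, and day 3 of OSK was a further 6.15-fold below day 1 (8 counts against 46). From day 2 of OvSvK and day 3 of OSK the levels lay between 0.839 and 2.88 CPM. Its slope was -0.84 log2 per day in OvSvK (SE 0.28, adjusted p = 0.0816) and -0.59 in OSK (SE 0.16, adjusted p = 0.0133). The OvSvK slope passed when OSK day 0 or day 3 was left out of the shared error (adjusted p = 0.0212 and 0.0421). In OSK the slope of Snai1 was -0.23 (adjusted p = 0.335) without day 0, the library that stood apart. Without OvSvK day 0 the slope in OvSvK was -0.28.

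Snai2 stood at 21.9, 11.9, 7.78, 7.58 and 7.51 CPM in OvSvK, and at 10.2, 14.9, 4.4, 5.50 and 2.71 CPM in OSK. It fell in OSK, by 0.31 log2 per day (SE 0.08, adjusted p = 0.0102), a call lost without day 7 (-0.28, adjusted p = 0.072). In OvSvK the slope was -0.37 (SE 0.13, adjusted p = 0.091). GFP had no day 0, and its slope for Snai2 was 0.28 (SE 0.10, adjusted p = 0.123). The slopes of Snai2 in OSK and GFP differed by -0.59 (SE 0.13, adjusted p = 0.0247), the only member called in that contrast, where 6.22% of genes were called, 3.38% as lower. The call was lost without OSK day 7 (-0.55, adjusted p = 0.0739) or without GFP day 1, 5 or 7 (-0.43, -0.59 and -0.68, adjusted p = 0.366, 0.053 and 0.167). Twist2 was next, at -0.56 (SE 0.17, adjusted p = 0.0738), and was called without OSK day 3 (-0.56, adjusted p = 0.0451).

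Zeb1 stood at 68.6, 57.5, 51.0, 42.6 and 37.7 CPM in OvSvK, and at 20.2, 39.1, 39.9, 46.3 and 26.7 CPM in OSK. It was lower on each later day of OvSvK, while OSK showed no one direction. Neither slope passed, at -0.21 in OvSvK (SE 0.13, adjusted p = 0.358) and 0.04 in OSK (SE 0.08, adjusted p = 0.713). Zeb2 stood at 71.4, 101, 75.1, 84.2 and 79.2 CPM in OvSvK, and at 17.7, 28.5, 66.9, 77.5 and 77.1 CPM in OSK. It was flat in OvSvK, with a slope of 0.00 (SE 0.12). In OSK Zeb2 rose by 0.30 log2 per day (SE 0.07, adjusted p = 0.00809), but by 0.21 (adjusted p = 0.106) without day 0, and the slope was -0.01 with the trend in GC content removed. Zeb2 was also the only member called within GFP, where 4.8% of genes were called, 2.07% as rising. It had 37.2, 109, 144 and 204 CPM there, a slope of 0.38 (SE 0.09, adjusted p = 0.0442), and 0.22 (adjusted p = 1) without day 1, and the call was lost in 9 of 14 fits that left out 1 library.

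Twist1 stood at 58.1, 61.4, 38.1, 34.5 and 31.7 CPM in OvSvK, and at 62.4, 99.0, 39.4, 34.5 and 28.8 CPM in OSK. Its level on day 1 was above that on day 0 in both arms, and the lower levels came after. It fell in OSK by 0.23 log2 per day (SE 0.06, adjusted p = 0.00883), and the slope was -0.11 (adjusted p = 0.336) with the GC trend removed. In OvSvK it was -0.25 (SE 0.10, adjusted p = 0.143). Twist2 stood at 23.4, 14.5, 10.8, 8.76 and 9.49 CPM in OvSvK, and at 55.1, 10.3, 3.04, 3.57 and 1.68 CPM in OSK. It fell in OSK by 0.67 log2 per day (SE 0.11, adjusted p = 0.00161), and by 0.40 without day 0. In OvSvK its slope was -0.33 (SE 0.19, adjusted p = 0.321). Over the same days Cdh1 rose, by 1.22 per day in OvSvK (SE 0.23, adjusted p = 0.00811) and 0.98 in OSK (SE 0.13, adjusted p = 0.000579). Without OvSvK day 0 its slope in OvSvK was 1.00 (adjusted p = 0.142).

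**Figure D2:**
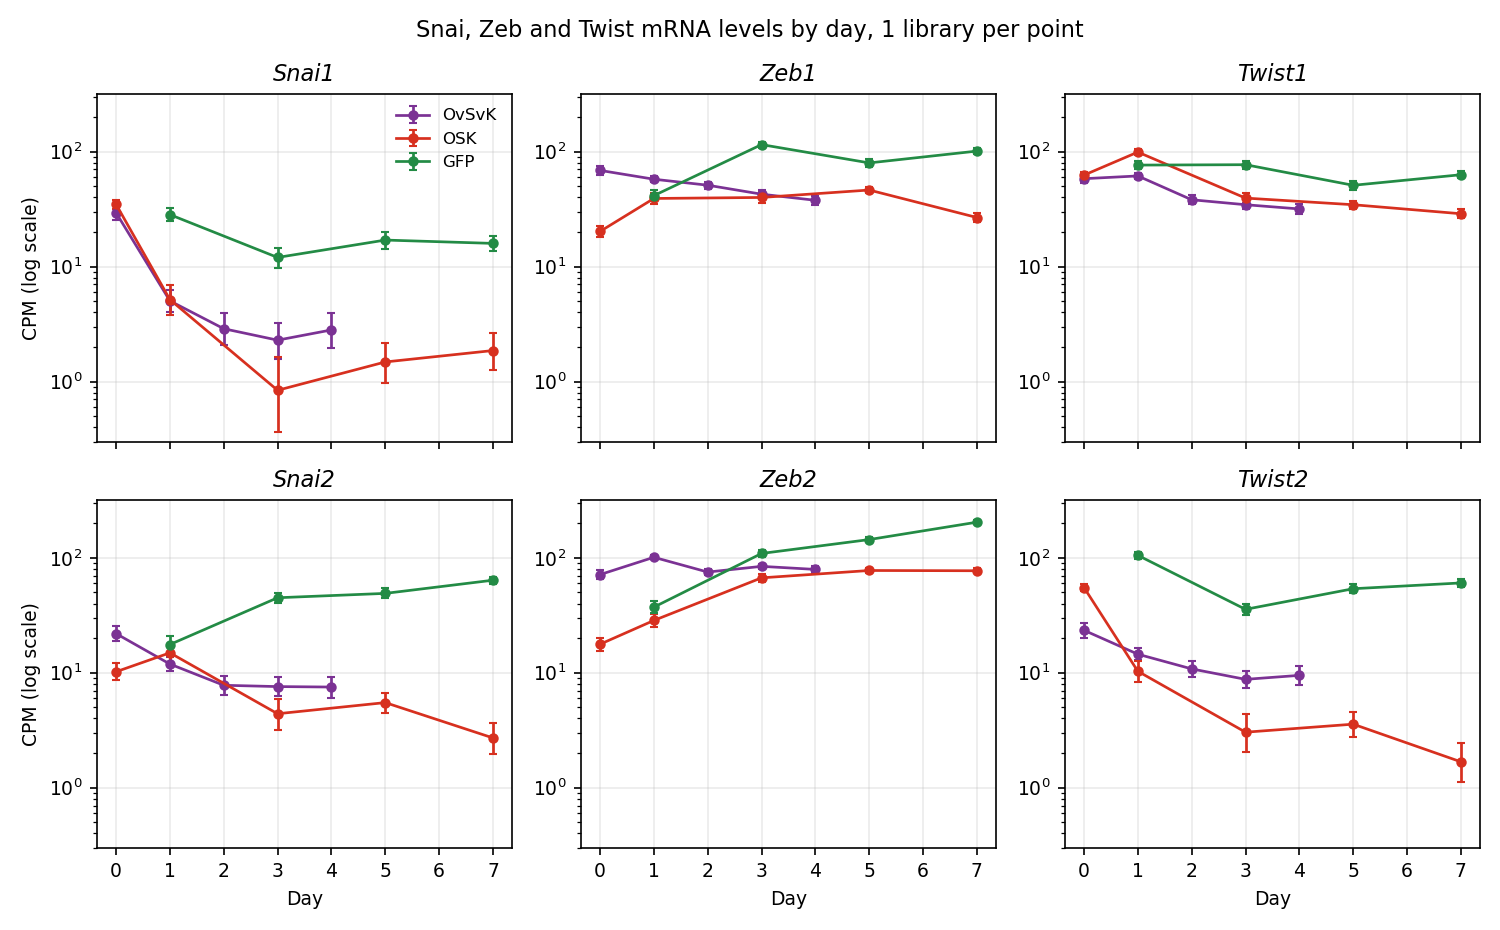
Level of each gene (CPM, log axis) by day in OvSvK, OSK and GFP. Each point is 1 library with its 95% Poisson interval. Snai1 and Twist2 lie far below GFP from day 1 of OSK onward, while Zeb2 in OvSvK stays between 71.4 and 101 CPM.

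**Figure D3:**
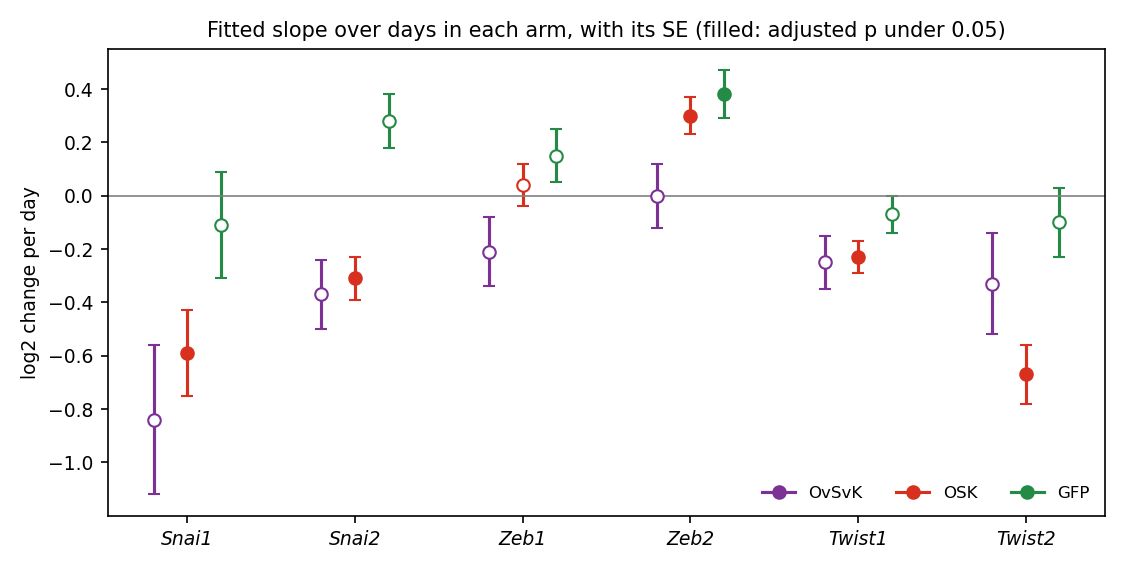
Fitted change per day (log2) of each gene in OvSvK, OSK and GFP, with its SE, filled where the adjusted p was under 0.05. Slopes of Snai1, Snai2, Twist1 and Twist2 lie below 0 in OvSvK and OSK, and Zeb2 has positive filled slopes in OSK (0.30) and GFP (0.38).

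OvSvK against OSK asks what the VP16 fusions changed. On days 0, 1 and 3 together edgeR called 0 of 12910 genes, with 2991 at an unadjusted p under 0.05, while DESeq2 called 1778. Among the members the largest difference was that of Zeb2, with 71.4, 101 and 84.2 CPM in OvSvK against 17.7, 28.5 and 66.9 CPM in OSK. OvSvK was higher on each of these days, by 4.03, 3.55 and 1.26-fold. The fit gave 1.42 (SE 0.42, adjusted p = 0.111), and DESeq2 gave 1.44 (adjusted p = 0.00843). Without day 3 it was 1.95 (adjusted p = 0.00261), and without day 0, which holds the library that stood apart, it was 1.08 (adjusted p = 0.115). Zeb1 had 68.6, 57.5 and 42.6 CPM in OvSvK, against 20.2, 39.1 and 39.9 CPM in OSK, and a difference of 0.82 (adjusted p = 0.285). Without day 0 that of Zeb1 was 0.33. The slopes of OvSvK and OSK differed for 0 of 13848 genes by edgeR, with 1681 at an unadjusted p under 0.05 and 416 called by DESeq2. No member reached an unadjusted p under 0.05 there.

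The end points of the 2 courses, OvSvK day 4 and OSK day 7, were 1 library each and have no test. OvSvK had 9.49 CPM of Twist2 (interval 7.84 to 11.4), against 1.68 CPM (1.12 to 2.43) in OSK. It had 7.51 CPM of Snai2, against 2.71 CPM in OSK. These were the members that differed most, at 5.64-fold and 2.77-fold. Zeb2 had 79.2 CPM in OvSvK and 77.1 CPM in OSK, and Twist1 31.7 CPM and 28.8 CPM in the same order. Cdh1 was nearly equal, with 342 CPM in the OvSvK library and 321 CPM in that of OSK.

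On the days that OvSvK shares with GFP, Snai1 stood at 5.03 and 2.29 CPM in OvSvK (days 1 and 3), against 28.3 and 12.0 CPM in GFP, or 5.62-fold and 5.22-fold lower. Twist2 was 7.21-fold and 4.06-fold lower on these days. Zeb2 was 2.72-fold higher in OvSvK on day 1 and 1.29-fold lower on day 3. These are ratios of single libraries of different sets.

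The omissions ask what each component of the medium contributed to the OSK course. Without GSK3 inhibitors Twist2 was higher and Zeb2 lower than in OSK. Without bFGF Twist2 and Twist1 were higher. Without vitamin C no member was called. GSK3 inhibitors activate Wnt signalling, bFGF is a fibroblast growth factor, and vitamin C is a cofactor of enzymes that demethylate DNA and histones. Each comparison used days 3 and 7 in 1 model of 8 libraries and 14191 genes. On these days genes of low GC content stood at -0.38 and -0.24 (log2, against their mean over libraries) without GSK3 inhibitors. They stood at -0.46 and 0.09 without bFGF, 0.35 and 0.5 without vitamin C, and 0.15 and 0.6 in OSK. The GC trend was not removed in these fits, and the part of GC content in the members' differences was not tested.

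Twist2 stood at 13 and 7.16 CPM without GSK3 inhibitors on days 3 and 7, against 3.04 and 1.68 CPM in OSK. It was 4.29-fold and 4.25-fold higher without the inhibitors. The difference was 2.10 (SE 0.35, adjusted p = 0.0037). Zeb2 stood at 26.9 and 38.2 CPM without GSK3 inhibitors, against 66.9 and 77.1 CPM in OSK, a difference of -1.16 (SE 0.23, adjusted p = 0.00782). So 1 of 6 members was called higher and 1 lower, where 23.3% of all genes were called, 9.97% as higher and 13.3% as lower. Snai1 (1.29, adjusted p = 0.0675), Snai2 (1.03, adjusted p = 0.0935), Twist1 (0.41, adjusted p = 0.156) and Zeb1 (0.15) did not pass, though Snai1 did without OSK day 7 (1.93, adjusted p = 0.0411). Without the day 7 library lacking GSK3 inhibitors neither call held, with Twist2 at 2.01 (adjusted p = 0.0729) and Zeb2 at -1.22 (adjusted p = 0.122). Cdh1 was lower, at 13.4 and 25.9 CPM without GSK3 inhibitors against 62.9 and 321 CPM in OSK (-2.85, adjusted p = 0.00361, and 0.0531 without OSK day 7).

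Without bFGF, Twist2 stood at 8.00 and 4.86 CPM, against 3.04 and 1.68 CPM in OSK, a difference of 1.46 (SE 0.34, adjusted p = 0.0234). Twist1 stood at 58.0 and 52.8 CPM, against 39.4 and 28.8 CPM in OSK, a difference of 0.72 (SE 0.20, adjusted p = 0.039). In all 2 of 6 members were called higher and 0 lower, where 12.5% of all genes were called, 4.71% as higher. The call of Twist1 was lost when any of 7 of the 8 libraries was left out (all but OSK day 3), at 0.61 to 0.87. That of Twist2 was lost without either library lacking bFGF, at 1.63 and 1.34 (adjusted p = 0.174 and 0.13). Zeb2 stood at 38.2 CPM on day 3 without bFGF, against 66.9 CPM in OSK, and was level on day 7 (75.3 CPM against 77.1 CPM in OSK).

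Without vitamin C, edgeR called 0 of 6 members and 42 genes in all (0.296%), with 0 members and 1782 genes at an unadjusted p under 0.05, and DESeq2 called 296 genes. Snai1 had 2.36 and 3.12 CPM without vitamin C, against 0.839 and 1.86 CPM in OSK, a difference of 0.99. Snai2 had 11.0 and 3.12 CPM without vitamin C, against 4.4 and 2.71 CPM in OSK, a difference of 0.84 that was 0.09 without the day 3 library lacking vitamin C.

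Comparing the omissions with each other stays within 1 set of libraries, though their genes of low GC content stood at different levels. These were at -0.38 and -0.24 (log2) without GSK3 inhibitors and 0.35 and 0.5 without vitamin C (days 3 and 7). The part of GC content in the members' differences was not tested. Twist2 had 13 and 7.16 CPM without GSK3 inhibitors, against 5.07 and 1.92 CPM without vitamin C, a difference of 1.62 (SE 0.34, adjusted p = 0.0109). Zeb2 had 26.9 and 38.2 CPM without GSK3 inhibitors, against 57.3 and 66.8 CPM without vitamin C, a difference of -0.93 (SE 0.23, adjusted p = 0.0236). Among all genes 14% were called, 4.66% higher and 9.29% lower. Without the day 3 or day 7 library lacking GSK3 inhibitors, or the day 7 library lacking vitamin C, neither was called. Twist2 was then at 1.70, 1.54 and 1.37 (adjusted p = 0.0513, 0.118 and 0.148) and Zeb2 at -0.89, -0.99 and -1.08 (adjusted p = 0.12, 0.226 and 0.0536). Without the day 3 library lacking vitamin C the call of Zeb2 alone was lost (-0.78, adjusted p = 0.198). Against cultures without vitamin C, those without bFGF showed 0 called members, where 7.03% of genes were called. The nearest were Twist1 (0.65, adjusted p = 0.0779) and Twist2 (0.99, adjusted p = 0.112), and both passed without OSK day 7 (adjusted p = 0.0194 and 0.0495). Without bFGF against without GSK3 inhibitors no member was called either, where 3.08% of genes were, and Zeb2 was nearest (0.76, adjusted p = 0.109, and 0.025 or 0.0235 without OSK day 3 or 7).

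**Figure D4:**
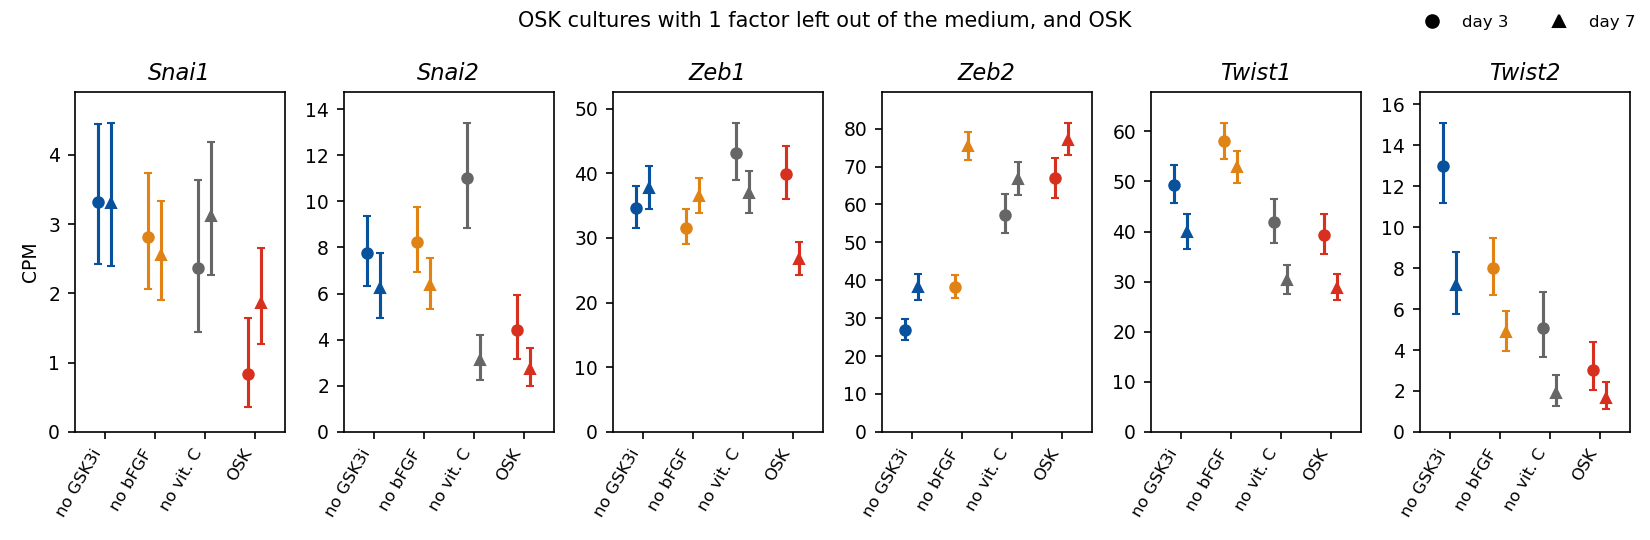
Level of each gene (CPM, linear axes from 0) on days 3 (circles) and 7 (triangles) in OSK cultures lacking GSK3 inhibitors, bFGF or vitamin C, and in OSK. Each point is 1 library with its 95% Poisson interval. Twist2 is highest (13 and 7.16 CPM) and Zeb2 lowest (26.9 and 38.2 CPM) without GSK3 inhibitors.

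Fibroblast markers were called higher than in OSK without GSK3 inhibitors and without bFGF. Without vitamin C 0 of 12 markers were called, with a median of 0.40. Their summed level was 8806 and 6433 CPM on days 3 and 7 without GSK3 inhibitors, 17889 and 9283 CPM without bFGF, and 9313 and 3865 CPM without vitamin C, against 9351 and 2702 CPM in OSK. All 12 markers were tested, with 6 higher and 0 lower without GSK3 inhibitors and 7 higher and 0 lower without bFGF than in OSK, where 9.97% and 4.71% of all genes were higher. Of 10 pluripotency markers 8 were tested, and 5 were lower in each of these comparisons, with Lin28a at 0 without GSK3 inhibitors. A marker near 0 in 1 arm was tested through its level in the others. The count of lower pluripotency markers is thus not independent of the filter. Sox2 and Klf4 were also higher than in OSK without GSK3 inhibitors (1.49 and 1.44) and without bFGF (0.90 and 1.15), while Pou5f1 was not called. The part of any of these in the members' differences was not tested.

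Per transcript length the members can be compared with each other. Their summed level was 218, 209, 160, 158 and 152 TPM on days 0 to 4 of OvSvK. It was 152, 210, 129, 121 and 94.5 TPM on days 0, 1, 3, 5 and 7 of OSK, against 325, 332, 320 and 399 TPM on days 1, 3, 5 and 7 of GFP. The omissions lay between 121 and 161 TPM. The sum thus lay lower in each factor library than in any GFP library. Twist1 was first in every library except OSK day 0 and GFP days 1, 5 and 7, where Twist2 was first.

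The share of each member in that sum also differed between days. Twist2 made up 36.1% of the members' TPM on day 0 of OSK, 8.48% on day 1 and 3.31% on day 7. In GFP it made up 47.4% on day 1 and 26.1% on day 7. For Snai1 the share was 16.8% on day 0 of OvSvK and 3.29% on its day 4, and 18.5% on day 0 of OSK and 2.98% on its day 7. Zeb2 made up 11.5% on day 0 of OvSvK and 25.4% on day 4. It made up 3.79% on day 0 of OSK and 32.1% on day 7. The day 0 shares of OSK come from the library that stood apart, with genes of low GC content at -1.63 (log2). That library also lies in the other set than the later days of OSK. In GFP day 1, genes of low GC content stood at -1.01 (log2). Zeb2 has the lowest GC content of the members (40.6%), and the part of GC content or set in these shares was not tested. By day 7 of OSK, Twist1 (46.3%), Zeb2 (32.1%) and Zeb1 (11.9%) held most of what remained, and Snai2 (3.44%), Twist2 (3.31%) and Snai1 (2.98%) were last and close together.

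**Figure D5:**
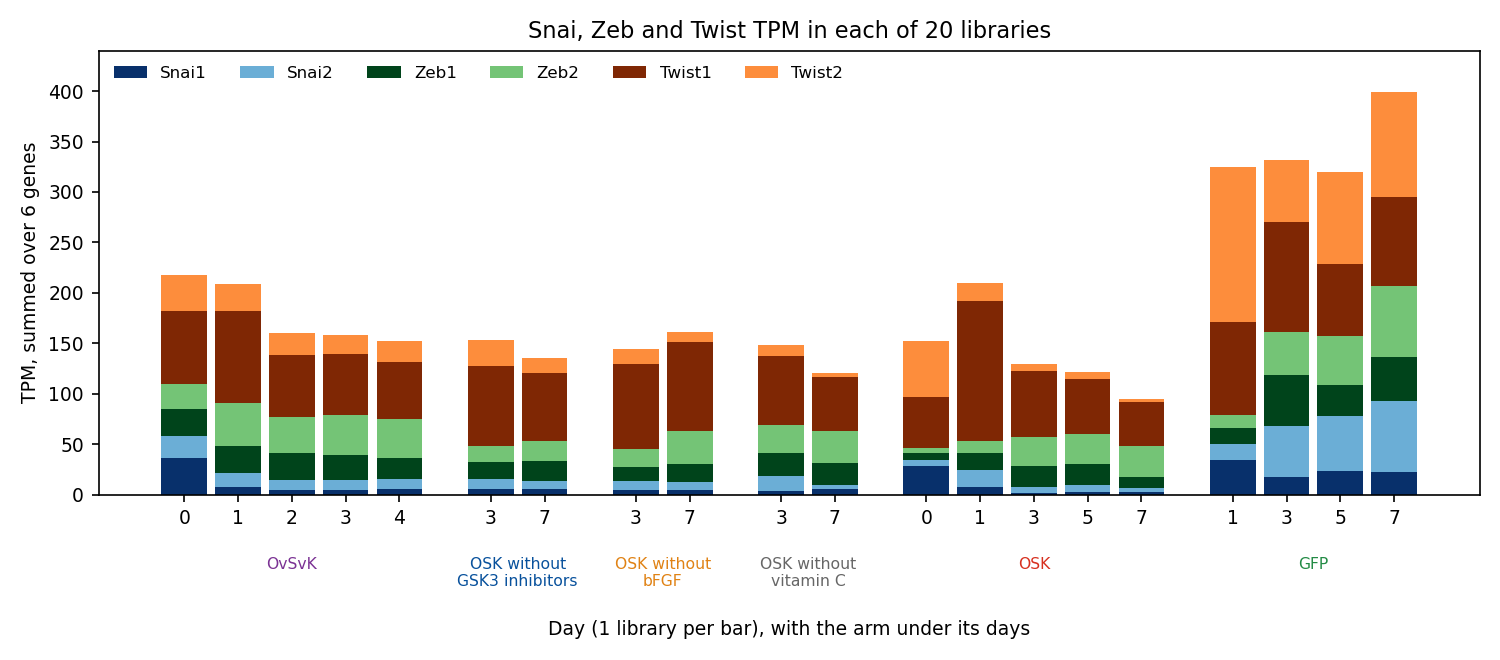
Summed TPM of the 6 genes in each of 20 libraries, 1 bar per library, by arm and day, with colours for the genes. GFP bars stand at 320 to 399 TPM and OSK day 7 at 94.5 TPM, where Twist1 and Zeb2 make up most of the bar.

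The end states were set side by side in the series table, whose values carry no stated unit (shared median 374 in all 22 columns). All 6 members were higher in MEF than in mESC. Twist2 had 593 in MEF and was listed at 0 in mESC. Zeb2 had 1930 in MEF and 50 in mESC, 38.6-fold higher in MEF, and Twist1 had 920 in MEF and 30 in mESC, 30.7-fold higher. Snai2 had 592 in MEF and 44 in mESC, and Snai1 460 in MEF and 69 in mESC. Zeb1 differed least and kept a middling level in mESC, with 1488 in MEF and 376 in mESC, where 50.1% of genes lay below it. Cdh1 had 15 in MEF and 9166 in mESC. Both end states are 1 library each, with no test, and per the labels both are re-analyses.

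The genes around these factors were described by lists, each by its counts and its median. Of all genes, 30.7% were called in OSK against GFP, 10.3% over the days in OvSvK, 45.5% over the days in OSK, 23.3% without GSK3 inhibitors and 12.5% without bFGF, and the counts below stand against these shares. Of 34 epithelial genes known to be repressed by EMT factors, 20 were tested in OSK against GFP, with 8 higher, 2 lower and a median of 2.02. Pkp1, a desmosomal plakophilin (9.36, SE 1.05), and Cdh1 (9.59, SE 0.89) were higher, and Krt18, a simple epithelial keratin (-2.95, SE 0.20), was lower. The filter keeps a gene that is high in 1 arm alone. Listed genes near 0 in GFP, such as Cdh1 (0 to 2 counts), were thus tested through their OSK level. Their direction was largely set by the filter, so the count of higher genes and the median are not independent of it. Over the days 18 of 31 rose and 0 fell in OvSvK, and 22 rose and 2 fell in OSK. Without OSK day 0 the counts in OSK were 17 and 0. The splicing regulator gene Esrp1 rose by 2.60 per day in OvSvK (SE 0.19) and 1.98 in OSK (SE 0.14). Without GSK3 inhibitors 13 of 34 were lower and 1 higher than in OSK, among the lower Grhl2, an epithelial transcription factor (-3.74, SE 0.63). Without bFGF 13 were lower and 0 higher, and Cldn4 was among the lower (-2.90, SE 0.48). Listed genes near 0 in some libraries were tested through their level in the others. The slope and omission counts are thus not independent of the filter either.

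Of 26 mesenchymal genes raised in EMT, 18 were lower in OSK than in GFP and 1 higher, with a median of -1.93. The matrix protease gene Mmp3 (-5.78, SE 0.56) was lower and Cdh2, N-cadherin (1.22, SE 0.16), was higher. In OvSvK 18 fell and 0 rose, and in OSK 20 fell and 0 rose, or 19 and 0 without OSK day 0. Loxl2, a lysyl oxidase that acts with Snai1, fell by 0.99 per day in OvSvK (SE 0.11) and 0.81 in OSK (SE 0.07). Without GSK3 inhibitors 11 were higher and 0 lower than in OSK, and without bFGF 9 were higher and 1 lower. Several of these genes, collagens among them, also stand in the fibroblast marker list.

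TGF-beta signalling is the best known inducer of Snai and Zeb genes. Of 18 genes of this pathway and its BMP branch (ligands, receptors and Smads, with the Smad corepressors Ski and Skil and the chromatin factor Hmga2), 7 were lower and 1 higher in OSK against GFP, such as the co-receptor gene Tgfbr3 (-4.59, SE 0.53) and the ligand gene Tgfb3 (-2.32, SE 0.26). In OSK 8 fell over the days and 3 rose, but 3 fell and 0 rose without OSK day 0. Tgfb1 fell by 0.56 per day (SE 0.07). Bmp7, a ligand that opposes TGF-beta in EMT, rose by 1.25 per day in OvSvK (SE 0.25). Without GSK3 inhibitors 5 were higher and 3 lower than in OSK, and the lower ones were the BMP receptor gene Bmpr1a (-1.35, SE 0.22), Tgfbr1 (-1.10, SE 0.22) and Skil (-1.15, SE 0.24).

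Twist proteins pair with E proteins, and Id proteins take E proteins away. Of 8 tested partners, 3 were lower in OSK than in GFP and 1 higher, with Id3 at -2.66 (SE 0.57), Id1 at -1.55 (SE 0.25) and Id4 at 2.79 (SE 0.32). Without GSK3 inhibitors Id1 was higher (1.14, SE 0.33) and Id2 lower (-1.10, SE 0.22) than in OSK. Of 16 corepressors that Snai and Zeb recruit, 4 were higher and 1 lower in OSK against GFP, a share near the 30.7% of all genes. These included the polycomb genes Ezh2 (1.99, SE 0.49) and Suz12 (1.89, SE 0.39) and the deacetylase gene Hdac2 (0.91, SE 0.21). Suz12 was lower without GSK3 inhibitors than in OSK (-2.26, SE 0.25). Of 14 genes acting on Snai1 protein stability, 1 was higher, the ubiquitin ligase gene Fbxl14 (1.16, SE 0.31), and 1 lower, the kinase gene Prkd1 (-2.0, SE 0.34). The kinase genes Gsk3a and Gsk3b, whose products mark Snai1 for degradation, were tested and not called in this comparison. Of 14 other EMT transcription factors tested, 6 were lower, such as Prrx2 (-4.12, SE 0.53) and Sox9 (-1.60, SE 0.22), and 1 higher, Klf8 (3.17, SE 0.26).

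Across the 20 libraries the members did not share 1 pattern. On log2(CPM + 1), Pearson's r was 0.89 between Snai1 and Twist2 and 0.83 between Snai2 and Twist2. It was 0.75 between Zeb1 and Zeb2 but -0.05 between Snai1 and Zeb2 and 0.03 between Zeb2 and Twist2. With Cdh1, r was -0.87 for Twist2, -0.85 for Snai2, -0.80 for Snai1 and for Twist1, -0.48 for Zeb1 and 0.02 for Zeb2. These describe 20 libraries that share arms, days and sets, and are not tests.

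Among 11233 genes with a mean of at least 5 CPM, the 3 most like each member by Pearson's r over the 20 libraries were as follows. Snai1 was closest to Pea15a, Fstl3 and the tropomyosin gene Tpm1 (0.96 each). Snai2 was closest to Dse (0.97), Amot and Snx9 (0.96 each), and Zeb1 to Arhgap29 (0.93), Frs2 and Acbd3 (0.92 each). Zeb2 was closest to the nuclear receptor cofactor gene Nrip1 (0.97), Mia3 and Lrch2 (0.95 each). Twist1 had the least close neighbours, Fam217b (0.91), Dennd5a and Frmd6 (0.89 each). Twist2 was closest to the homeobox gene Irx3 (0.97), Fmnl3 and Spsb1 (0.96 each).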

How the data were processed

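RNA-seq of mouse fibroblast cultures was deposited as 1 table per library for 20 libraries and 1 series table. The authors made expected counts and TPM per gene with RSEM, for which the submitters' processing notes name versions 1.1.21 and 1.2.4 and the builds mm10 and, for mESC and MEF, mm9. Aligner, annotation and strandedness were not given in the sources used here. Next to these, the deposited series table (12897 genes, 22 columns) holds a score with no stated unit. Its columns share 1 median and 1 maximum, and it was used for mESC and MEF alone, as it stands.

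Expected counts were rounded to whole numbers. Symbols came from the series table (12897) or the mm10 annotation (10788), and 445 IDs had none. Tests used edgeR 4.0.16 in R 4.3.3 (TMM scaling, filterByExpr, robust quasi-likelihood fit), with Benjamini-Hochberg adjustment over all genes tested and a threshold of 0.05. The SE is the log2 change over the square root of F. CPM is the rounded count scaled to the TMM-adjusted library size. OSK against GFP and OvSvK against OSK took day as a block, slopes were lines over days per arm, and the omissions took days 3 and 7 as a block, 13 comparisons in all. The scripts were tested on simulated data. Alternatives for every fit were DESeq2 1.42.0, RLE scaling, no filter, limma 3.58.1 on log2(TPM + 1), and leaving libraries out. Removal of the GC trend and limma on log2(TPM + 0.1) were run for OSK against GFP and for the slopes alone. The 1 model over all libraries was run for OSK against GFP alone.

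The 6 genes, the lists and the tests were chosen with earlier results of these data known. Genes were named by rule. These were the members, up to 3 called genes per list and comparison with the smallest p, the 3 genes most like each member, Cdh1, and Pou5f1, Sox2 and Klf4. Crb3 was added for its promoter. Promoters came from RefSeq (GRCm38.p6).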

Additional observations from a re-analysis of the deposited data

Results flagged for a closer look

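The course of Snai2 over days differed between OSK and GFP by -0.59 log2 per day (SE 0.13, adjusted p = 0.0247, edgeR quasi-likelihood test of the difference in slopes), where 6.22% of all genes were called. Snai2 stood at 10.2, 14.9, 4.4, 5.50 and 2.71 CPM in OSK, which has a day 0, and at 17.6, 44.9, 49.0 and 63.8 CPM in GFP, which has none. The call was lost without OSK day 7 or GFP day 1, 5 or 7 (adjusted p = 0.0739, 0.366, 0.053 and 0.167). It was also lost with limma (-0.48 and -0.52) and without both OSK day 0 and GFP day 1 (-0.49, adjusted p = 0.211).

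Leaving out GSK3 inhibitors and leaving out vitamin C gave different levels of 2 of 6 members, where 14% of all genes were called. Twist2 was higher without GSK3 inhibitors by 1.62 (SE 0.34, adjusted p = 0.0109), and Zeb2 was lower (-0.93, SE 0.23, adjusted p = 0.0236), by edgeR's quasi-likelihood test. Both calls were lost without the day 3 or day 7 library lacking GSK3 inhibitors or the day 7 library lacking vitamin C, with adjusted p = 0.0513 to 0.148 for Twist2 and 0.0536 to 0.226 for Zeb2. On log2(TPM + 1) limma called Twist2 and did not call Zeb2 (-0.75, adjusted p = 0.101). Genes of low GC content stood at -0.38 and -0.24 (log2) without GSK3 inhibitors and 0.35 and 0.5 without vitamin C (days 3 and 7). The GC trend was not removed in this fit, and the part of GC content was not tested.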

How the results depend on the processing

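With 1 library per arm and day, a call rests on the spread over days, and depth limits the lowest levels (8 counts of Snai1 on OSK day 3). No paired analysis by replicate number was possible because each arm and day has 1 library, and matching by day was already a block in every fit but the slopes. In OSK against GFP the fits of all 6 members stayed below 0 under every alternative run. DESeq2, removal of the GC trend and 1 model over all libraries also called Zeb1 (adjusted p = 0.00967, 0.0397 and 0.00769), limma did not call Zeb2 (adjusted p = 0.0535 and 0.0524 with the larger and smaller pseudocount), and the 1 model called Twist1 (adjusted p = 0.0428). Where other values moved, the cause was not tested.

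For slopes in OvSvK, where 0 members were called, DESeq2 called 1, removal of the GC trend 2, and leaving out both OSK day 0 and GFP day 1 called 3. For slopes in OSK, where 5 were called, limma called 2 with either pseudocount, and removal of the GC trend and leaving out both libraries 3 each. The slope of Zeb1 in OSK was then -0.05 with the GC trend removed and -0.07 without both libraries, that of Zeb2 was -0.01 with the GC trend removed, and that of Id1 was 0.13 without both. For slopes in GFP, where 1 was called, DESeq2 called 2, and no filter, limma with either pseudocount, removal of the GC trend and leaving out both libraries 0. Without both, GFP slopes were 0.09 for Snai1, -0.06 for Zeb1, 0.18 for Twist2 and 0.22 for Cdh1. For OSK minus GFP slopes, where 1 was called, DESeq2 and removal of the GC trend called 2, and limma and leaving out both libraries 0. For OvSvK minus OSK slopes Snai2 was at 0.08 with the GC trend removed and Twist1 at 0.04 without both libraries. DESeq2 called 1 member in OvSvK against OSK. On log2(TPM + 1), limma called 1 member without bFGF against OSK and 1 without GSK3 inhibitors against without vitamin C, where 2 were called in each. Without bFGF against without vitamin C, Snai1 was at 0.03 with no filter, and without bFGF against without GSK3 inhibitors, Snai2 was at -0.02 with limma on log2(TPM + 1).

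Leaving out 1 library, or 1 day of matched pairs, gave 2 to 6 called members in OSK against GFP, 0 to 1 for slopes in OvSvK, 3 to 5 in OSK, 0 to 1 in GFP, 0 to 2 for OSK minus GFP slopes and 0 to 1 in OvSvK against OSK. It gave 0 to 2 without bFGF and 0 to 3 without GSK3 inhibitors, each against OSK. Against cultures without vitamin C it gave 0 to 2 without bFGF and 0 to 2 without GSK3 inhibitors, and it gave 0 to 1 without bFGF against without GSK3 inhibitors. Some of these values, none of them called beside that of Id1, changed sign. Slopes in OSK ran from -0.07 to 0.18 for Zeb1 and -1.10 to 0.13 for Id1. Slopes in GFP ran from -0.18 to 0.10 for Snai1, -0.05 to 0.24 for Zeb1, -0.23 to 0.19 for Twist2 and -0.22 to 0.24 for Cdh1. OSK minus GFP slopes ran from -0.22 to 0.09 for Zeb1 and -0.19 to 0.08 for Zeb2. OvSvK minus OSK slopes ran from -0.63 to 0.31 for Snai1, -0.20 to 0.11 for Snai2 and -0.10 to 0.05 for Twist1. OvSvK against OSK ran from -0.11 to 0.59 for Snai1 and -0.36 to 0.98 for Twist2. Against OSK, Zeb1 ran from -0.26 to 0.39 without bFGF, -0.04 to 0.61 without vitamin C and -0.17 to 0.48 without GSK3 inhibitors, and without vitamin C Twist1 ran from -0.02 to 0.17 and Cdh1 from -1.13 to 0.14. Without bFGF against without vitamin C the ranges were -0.29 to 0.31 for Snai1, -0.34 to 0.98 for Snai2, -0.41 to 0.01 for Zeb1 and -0.50 to 0.16 for Zeb2. Without GSK3 inhibitors against without vitamin C they were -0.39 to 0.92 for Snai2 and -0.32 to 0.06 for Zeb1. Without bFGF against without GSK3 inhibitors they were -0.26 to 0.42 for Snai2 and -0.30 to 0.14 for Zeb1. For other list genes named by the rule, 344 values under an alternative lost the call and 1709 kept it.

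Counts over all genes also moved. Those for OSK against GFP were 3895, and 3585 to 5856 under other settings. Slopes gave 1426 (1310 to 3163) in OvSvK, 6298 (3498 to 7257) in OSK, 665 (2 to 2202) in GFP and 862 (18 to 1782) for OSK minus GFP. Against OSK the counts were 1771 (1022 to 2243) without bFGF and 42 (7 to 296) without vitamin C. Against cultures without vitamin C, those without bFGF gave 997 (587 to 1414), and without bFGF against without GSK3 inhibitors gave 437 (212 to 848).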
